A study of Rattus norvegicus and Mus musculus with 22 samples.

Results

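The genes described here are 41 DNA replication genes, chosen by symbol from a list of S-phase genes and looked up in all 4 count tables of the series. All 41 were found in the day 56 lung table and in the spleen table, and 40 were found in the day 7 lung table and in the day 7 lung CD4 table, where E2f1 was not analysed. Each rat table listed 22081 gene symbols, and 25683 were listed for mouse. Every member found passed the filter on low counts, apart from Mcm10 in spleen.

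The rat libraries came from animals under Sugen-Hypoxia, a model of pulmonary hypertension in which a VEGF receptor blocker is combined with low oxygen. All 16 rat libraries share this treatment, and no untreated lung was analysed here. Lung CD4-positive cells, isolated by magnetic beads (MACS) at day 7, gave 2 libraries from IL6KO rats, labelled as knockouts of the cytokine gene Il6, and 2 from wild type (WT) rats. Whole lung gave 3 IL6KO and 3 WT libraries at day 56, and 3 IL6KO and 3 WT libraries at day 7. The 6 mouse libraries were splenic CD4+ T cells of Ai14; SM22alpha-Cre reporter mice, with 3 tdTomato-positive and 3 tdTomato-negative fractions from 3 animals, separated by FACS. In these mice tdTomato marks cells in which Cre, driven by the promoter of the smooth muscle gene SM22alpha, has been active at any time. Ages and any pooling of animals: the sources used here give neither.

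Before a cell copies its DNA, the origin recognition complex with Cdc6 and Cdt1 loads the Mcm2 to Mcm7 helicase onto chromatin. Cdc45 and the GINS complex then switch the helicase on, the primase and polymerases synthesise DNA on a sliding clamp made of Pcna, and nucleotide synthesis enzymes such as ribonucleotide reductase supply the building blocks. Many of these genes are switched on together at the G1/S border through E2F transcription factors, and most lung cells of an adult animal are not dividing. In whole tissue, fewer dividing cells and less replication RNA per cell cannot be told apart.

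Total counts per library ran from 8737138 to 23590070, and levels are given as CPM, counts scaled to library size, after TMM scaling within each table. Il6 had few reads in lung: 0, 2 and 3 counts in the day 56 IL6KO libraries, against 6, 6 and 5 in WT, and 8, 5 and 2 counts in the day 7 IL6KO libraries, against 5, 11 and 6 in WT. The lung CD4 isolates had 8 and 17 Il6 counts in IL6KO, against 48 and 20 in WT. The genotypes overlapped in Il6 counts in day 7 lung; which stretch of Il6 was deleted was not given in the sources used here, and reads outside it would check nothing. In the day 56 lung table the WT replicate 3 library stood apart from the other WT libraries on the first principal component (44.5% of the variance), at 18.3, where the IL6KO libraries had 22, 16.9 and 22 and the other WT libraries -45.3 and -34. T cell markers were present in the CD4 isolates: 6 T cell genes summed to 1903–2025 CPM in IL6KO and 2171–2200 CPM in WT isolates, against 39.5–52.4 CPM in IL6KO and 34.1–47.2 CPM in WT day 7 lung. Within that list Cd4 itself went the other way between genotypes, with 771 and 737 CPM in IL6KO and 610 and 641 CPM in WT isolates. The isolates also held RNA of other lung cells, with 5 alveolar type 2 markers at 1157–1168 CPM in IL6KO and 2249–3234 CPM in WT isolates and 5 macrophage markers at 2224–2405 CPM in IL6KO and 1391–1402 CPM in WT isolates. Of the alveolar type 2 markers Napsa went the other way, with 494 and 461 CPM in IL6KO and 414 and 337 CPM in WT isolates. No label says that replicates of a group were separate animals in the rat series, so p-values measure the spread between these libraries.

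Many replication genes carried an E2F-type promoter motif. They were chosen by symbol and not by sequence, but as S-phase genes many are known to be switched on through E2F factors. RefSeq promoters of the rat genome (build GRCr8, 250 bases before to 50 bases after each gene's start) matched 34 of the 41 symbols; Orc1, Cdc6, Mcm4, Gins4, Rrm2, E2f1 and Ccne2 had no entry. An E2F-type motif, searched as TTTCCCGC, TTTCGCGC, TTTGCCGC or TTTGGCGC on both strands with overlapping matches counted, was present in 15 of these 34 promoters (44.1%). It was present in 598 of 21851 promoters of protein-coding rat genes (2.74%) and in 1 of 17 promoters of a list of mitosis genes (5.88%). The CCAAT motif was in 19 of the 34 replication promoters (55.9%), in 14 of 17 mitosis promoters (82.4%) and in 8295 of 21851 protein-coding promoters (38%). The 4 promoters below belong to the members with an E2F-type match and the smallest p in the genotype comparison of day 7 lung. Capitals mark the E2F-type matches, and each sequence runs 5′ to 3′ along the gene's strand. Bases are counted from the annotated start, negative before it.
Pole promoter (chr12:52053613-52053912, - strand): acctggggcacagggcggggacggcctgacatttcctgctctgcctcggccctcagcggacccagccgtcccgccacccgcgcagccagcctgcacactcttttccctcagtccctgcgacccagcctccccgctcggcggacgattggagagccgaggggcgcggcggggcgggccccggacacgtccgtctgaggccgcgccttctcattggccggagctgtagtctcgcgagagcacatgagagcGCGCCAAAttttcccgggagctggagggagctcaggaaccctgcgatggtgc
Mcm2 promoter (chr4:122918045-122918344, - strand): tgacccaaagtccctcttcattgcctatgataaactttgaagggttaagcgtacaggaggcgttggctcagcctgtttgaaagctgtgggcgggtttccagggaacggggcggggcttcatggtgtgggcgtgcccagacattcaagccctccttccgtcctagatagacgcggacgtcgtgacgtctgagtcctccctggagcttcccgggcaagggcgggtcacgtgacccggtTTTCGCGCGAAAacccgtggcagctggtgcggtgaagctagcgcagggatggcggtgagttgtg
Mcm5 promoter (chr19:13488563-13488862, + strand): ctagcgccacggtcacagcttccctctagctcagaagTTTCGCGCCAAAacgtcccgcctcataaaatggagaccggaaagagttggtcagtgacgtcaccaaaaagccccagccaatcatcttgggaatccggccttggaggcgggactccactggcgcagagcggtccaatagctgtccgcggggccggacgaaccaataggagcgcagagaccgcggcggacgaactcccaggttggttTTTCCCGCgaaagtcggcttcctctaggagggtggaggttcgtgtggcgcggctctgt
Gins1 promoter (chr3:160184670-160184969, + strand): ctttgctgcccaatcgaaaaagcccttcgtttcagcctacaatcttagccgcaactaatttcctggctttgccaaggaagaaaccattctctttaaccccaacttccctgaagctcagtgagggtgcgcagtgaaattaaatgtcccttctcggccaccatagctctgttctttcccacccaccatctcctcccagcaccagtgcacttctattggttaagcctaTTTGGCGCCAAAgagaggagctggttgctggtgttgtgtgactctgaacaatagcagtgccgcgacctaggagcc
In Pole, the catalytic subunit of the leading-strand polymerase, the match spans the annotated start, from base -2 to base 6. In Mcm2 2 overlapping matches on opposite strands cover one run from base -14 to base -3. Mcm5 carries a similar pair from base -213 to base -202 and a single match from base -8 to base -1. In Gins1, a subunit of GINS, the overlapping pair lies from base -25 to base -14. A match describes letters and not a bound site.

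Expression of the replication genes was mostly lower in lung at day 56 than at day 7, in both genotypes. At an adjusted p under 0.05 (edgeR's quasi-likelihood test, Benjamini-Hochberg over all genes tested), 18 of 40 members fell and 0 rose in IL6KO lung, where 4.92% of all 13865 genes fell and 3.4% rose. In WT lung 26 of 40 members fell and 1 rose, where 8.05% of all genes fell and 6.72% rose. The median log2 fold change of the members was -0.52 in IL6KO and -0.60 in WT lung, and over all genes tested it was 0.03 in IL6KO and 0.01 in WT lung. The 18 members that fell in IL6KO lung were all among the 26 that fell in WT lung, 100% of the IL6KO list and 69.2% of the WT list. These 2 comparisons share no library but are not independent. Both come from 1 joint fit with shared scaling and shared estimates of spread, and from the same 2 count tables. Without the WT day 56 replicate 3 library, the count of called members in IL6KO lung went from 18 to 20. Summed over 40 members, the level was 542–606 CPM at day 56 and 675–772 CPM at day 7 in IL6KO lung, and 614–633 CPM at day 56 and 799–912 CPM at day 7 in WT lung. All day 56 libraries lay below all day 7 libraries in 28 members in IL6KO and 30 in WT lung. They lay wholly above in 1 member in each genotype. The share of all genes without overlap over the days is not given here.

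**Figure D1:**
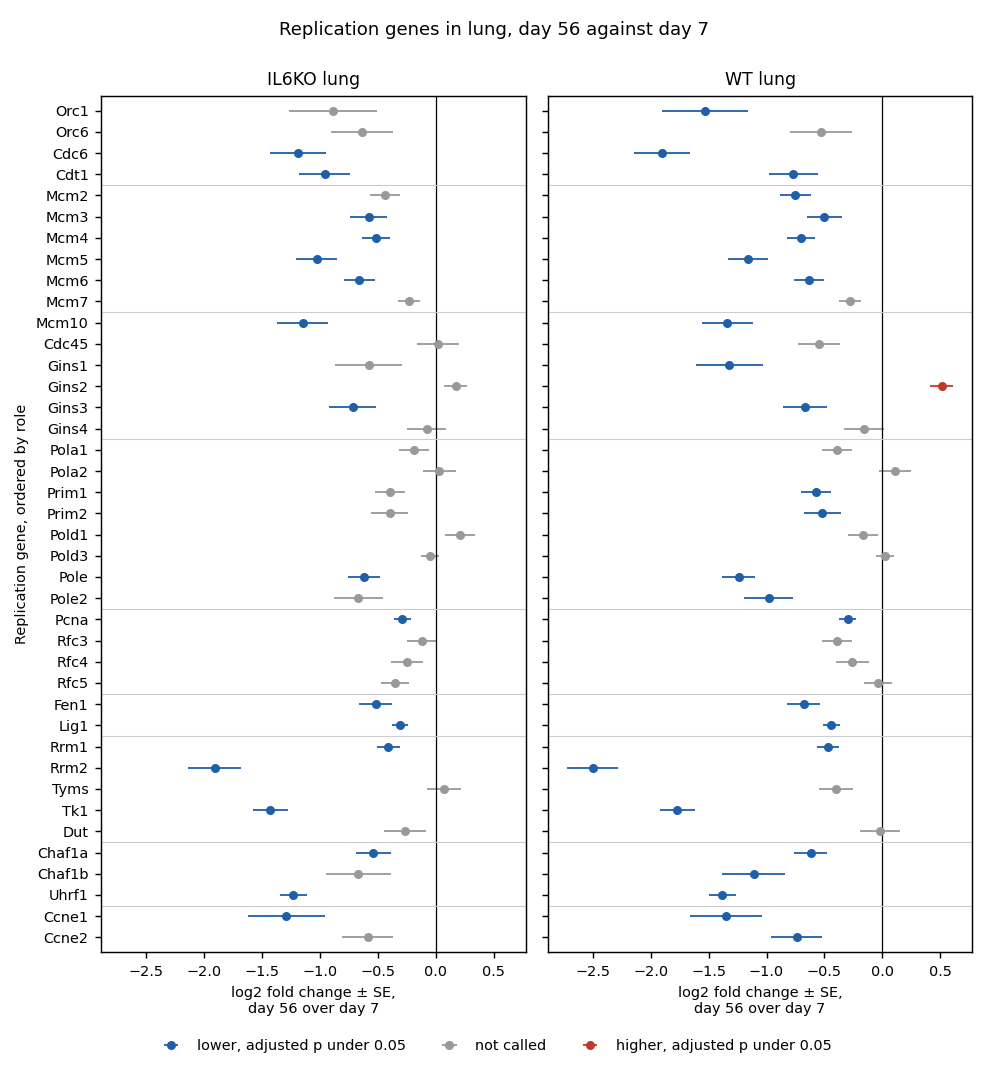
log2 fold change with its standard error (horizontal axis) of 40 replication genes (rows, grouped by role) at day 56 over day 7 in IL6KO lung (left) and WT lung (right), with 3 libraries per genotype and day. Most points lie left of 0 in both genotypes, Rrm2 lies furthest left at -1.91 in IL6KO and -2.50 in WT, and Gins2 is the only member called higher, in WT lung.

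The largest fall in both genotypes was that of Rrm2, the small subunit of ribonucleotide reductase, which makes deoxyribonucleotides in S phase. In IL6KO lung Rrm2 had 1.95, 2.89 and 2.08 CPM at day 56, against 8.97, 10.2 and 6.45 CPM at day 7. In WT lung it had 1.97, 2.61 and 3.26 CPM at day 56, against 13.3, 13.8 and 16 CPM at day 7. All day 56 libraries lay below all day 7 libraries in each genotype. The log2 fold change, here and below from a joint fit of both lung tables, was -1.91 ± 0.23 (SE) in IL6KO (adjusted p = 0.000133) and -2.50 ± 0.22 in WT lung (adjusted p = 7.87e-06). Rrm2 overlaps the gene Cys1 in the rat annotation, and whether counting used strand was not given in the sources used here. Cys1 did not pass the test in IL6KO lung (0.60, adjusted p = 0.112) and rose in WT lung (0.71, adjusted p = 0.0404), opposite to Rrm2.

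Of the other nucleotide supply genes, Tk1, the cytosolic thymidine kinase, fell most. Tk1 had 8.82, 11 and 10.5 CPM at day 56 and 27.2, 29.7 and 23.4 CPM at day 7 in IL6KO lung. In WT lung Tk1 had 12.2, 10.1 and 13.1 CPM at day 56 and 33.9, 37.1 and 46 CPM at day 7. The groups did not overlap, and the log2 fold change was -1.43 ± 0.15 in IL6KO (adjusted p = 4.85e-05) and -1.77 ± 0.15 in WT (adjusted p = 4.92e-06). Rrm1, the large subunit of ribonucleotide reductase, fell less, by 0.41 on the log2 scale in IL6KO (adjusted p = 0.0195) and by 0.47 in WT lung (adjusted p = 0.00648). Tyms, the thymidylate synthase, and Dut, which breaks down dUTP, did not pass the test in either genotype, with log2 fold changes of 0.07 and -0.27 in IL6KO and of -0.40 and -0.02 in WT lung.

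Of the origin licensing genes, 2 of 4 fell in IL6KO lung and 3 of 4 in WT lung. Cdc6, the loader of the helicase, had 1.76, 1.85 and 2.08 CPM at day 56, against 4.32, 4.96 and 3.53 CPM at day 7 in IL6KO lung. In WT lung Cdc6 had 2.34, 1.5 and 1.46 CPM at day 56, against 6.03, 5.26 and 8.12 CPM at day 7. Again no day 56 library reached a day 7 library, with log2 fold changes of -1.19 ± 0.24 in IL6KO (adjusted p = 0.00855) and -1.90 ± 0.24 in WT (adjusted p = 0.000193). Cdt1, its partner in loading, had 3.83, 4.63 and 3.96 CPM at day 56 and 8.58, 7.26 and 7.83 CPM at day 7 in IL6KO rats, and 6.96, 6.77 and 4.17 CPM at day 56 and 7.75, 9.63 and 12.5 CPM at day 7 in WT rats, again without overlap. It fell by 0.96 in IL6KO and by 0.77 in WT lung on the log2 scale. Orc1, the largest subunit of the origin recognition complex, fell in WT (-1.53, adjusted p = 0.0169) and was at -0.89 with an adjusted p of 0.187 in IL6KO lung, and its level was low. Orc1 had 0.547, 0.983 and 0.793 CPM at day 56 and 1.33, 1.82 and 1.13 CPM at day 7 in IL6KO rats, and 0.416, 0.708 and 0.972 CPM at day 56 and 1.39, 1.7 and 2.75 CPM at day 7 in WT rats.

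In the helicase core 4 of 6 genes fell in IL6KO and 5 of 6 in WT lung, and the summed level of Mcm2 to Mcm7 was 121–137 CPM at day 56 and 163–197 CPM at day 7 in IL6KO, and 139–163 CPM at day 56 and 199–244 CPM at day 7 in WT lung. Mcm5 changed most. It had 9.37, 11.7 and 9.66 CPM at day 56, against 24.2, 21.2 and 16.1 CPM at day 7 in IL6KO lung, and 10.9, 13 and 15.2 CPM at day 56, against 25, 26.7 and 33.3 CPM at day 7 in WT lung. Its log2 fold change was -1.03 ± 0.18 in IL6KO (adjusted p = 0.00257) and -1.16 ± 0.17 in WT (adjusted p = 0.000685). Mcm6 had 17, 20.5 and 18.5 CPM at day 56 and 31.8, 30.9 and 24.2 CPM at day 7 in IL6KO rats, and 22.3, 19.9 and 22.5 CPM at day 56 and 28.2, 31.9 and 37 CPM at day 7 in WT rats. Mcm2 had 22.7, 25 and 23.9 CPM at day 56 and 34.9, 30.7 and 29.3 CPM at day 7 in IL6KO rats, and 23.7, 21.8 and 28.4 CPM at day 56 and 35.1, 38.9 and 46.8 CPM at day 7 in WT rats. In both genes all day 56 libraries were below all day 7 libraries, and the log2 fold change of Mcm2 passed the test in WT (-0.75, adjusted p = 0.00182) and missed it in IL6KO lung (-0.44, adjusted p = 0.0553). Mcm7 had the smallest change of the core, at -0.23 in IL6KO and -0.28 in WT lung, and passed the test in neither.

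The helicase activators were split. Mcm10, which helps the helicase start to unwind DNA, had 2.31, 2.54 and 2.87 CPM at day 56 and 6.81, 5.51 and 4.5 CPM at day 7 in IL6KO rats, and 2.34, 2.7 and 3.96 CPM at day 56 and 6.96, 6.61 and 8.43 CPM at day 7 in WT rats. The groups did not overlap in either genotype, and it fell by 1.15 in IL6KO (adjusted p = 0.00657) and by 1.34 in WT lung (adjusted p = 0.00144) on the log2 scale, and Gins3 fell in both genotypes, by 0.72 in IL6KO and 0.67 in WT lung. Gins1 fell in WT (-1.32, adjusted p = 0.00905) and not past the threshold in IL6KO lung (-0.58, adjusted p = 0.273), while Cdc45 and Gins4 passed in neither. Gins2 was the one member that rose. It had 38.7, 38.6 and 44.8 CPM at day 56 and 34.5, 35 and 36.4 CPM at day 7 in IL6KO lung, and 50.4, 47.9 and 42.1 CPM at day 56 and 32, 28.7 and 35.2 CPM at day 7 in WT lung. The log2 fold change was 0.17 ± 0.1 in IL6KO (adjusted p = 0.374) and 0.51 ± 0.10 in WT lung (adjusted p = 0.00612). Gins2 overlaps Gse1 on the opposite strand in the rat annotation, so reads of both may be mixed without strand-aware counting; Gse1 itself was at 0.12 in IL6KO and 0.00 in WT lung on the log2 scale and passed the test in neither (adjusted p = 0.606 and 0.984). The same limit holds for Uhrf1 (overlapping Arrdc5), Fen1 (Tmem258), Lig1 (Zswim9), Pole2 (Klhdc1) and Ccne2 (Ints8). Of these partners Arrdc5 had 0 counts in every rat library, and Klhdc1 and Ints8 did not pass the test over the days, at 0.16 and 0.22 in IL6KO and 0.23 and 0.10 in WT lung; Tmem258 and Zswim9 were not compared over the days here.

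**Figure D2:**
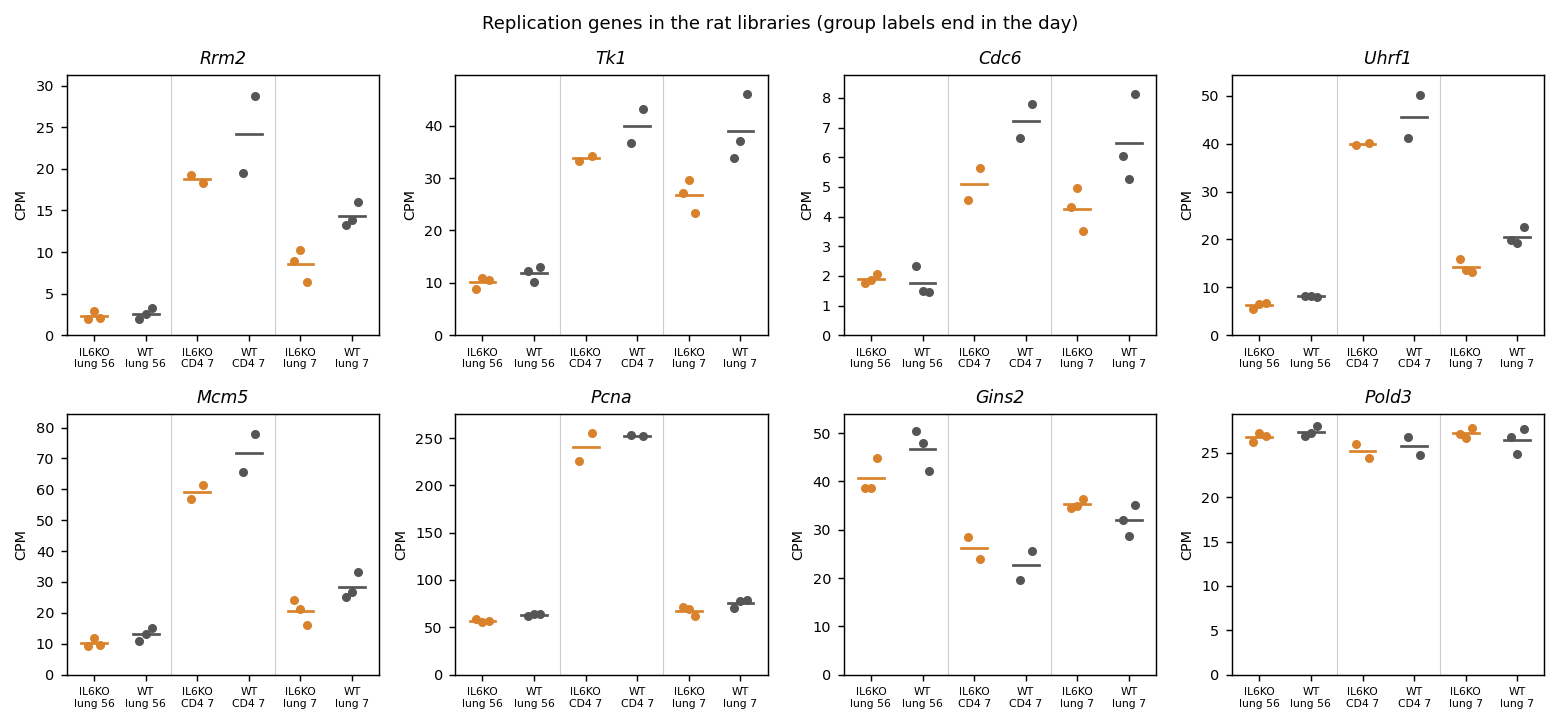
TMM-scaled CPM (vertical axis, from 0) of 8 replication genes in each rat library (points) with the group mean (line), IL6KO in orange and WT in grey, in lung at day 56, lung CD4 isolates at day 7 and lung at day 7. Rrm2, Tk1, Cdc6, Uhrf1 and Mcm5 are lowest at day 56, Pcna reaches 226–255 CPM in the CD4 isolates, Gins2 runs the other way, and Pold3 is nearly level at 24.4–28.1 CPM.

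Among the polymerase and primase genes 1 of 8 fell in IL6KO lung and 4 of 8 in WT lung. Pole had 6.63, 8.67 and 8.47 CPM at day 56 and 13.2, 11.9 and 10.5 CPM at day 7 in IL6KO lung, and 6.44, 6.63 and 7.5 CPM at day 56 and 15.1, 14.8 and 17.4 CPM at day 7 in WT lung. The log2 fold change was -0.62 ± 0.14 in IL6KO (adjusted p = 0.0156) and -1.24 ± 0.14 in WT (adjusted p = 6.82e-05). The second subunit Pole2 had 1.76, 1.62 and 1.98 CPM at day 56 and 2.99, 2.72 and 2.66 CPM at day 7 in IL6KO rats, and 1.35, 2.26 and 1.74 CPM at day 56 and 3.25, 3.27 and 3.81 CPM at day 7 in WT rats, with no overlap. Pole2 and the primase subunits Prim1 and Prim2 fell in WT lung, by 0.98, 0.57 and 0.52 on the log2 scale, and were at -0.67, -0.40 and -0.40 without passing in IL6KO lung. Pola1 and Pola2 of polymerase alpha and Pold1 and Pold3 of the lagging-strand polymerase delta passed in neither genotype. Pold3 was nearly level, with 26.2, 27.3 and 26.9 CPM at day 56 and 27.1, 26.7 and 27.8 CPM at day 7 in IL6KO lung and a log2 fold change of -0.05 in IL6KO and 0.02 in WT lung.

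The clamp gene Pcna had 58.3, 55.1 and 56.5 CPM at day 56 and 71.5, 69.5 and 62 CPM at day 7 in IL6KO rats, and 61.6, 63.5 and 63.8 CPM at day 56 and 70.6, 77.9 and 78.6 CPM at day 7 in WT rats. It fell by a small amount, 0.29 ± 0.075 on the log2 scale in IL6KO (adjusted p = 0.0328) and 0.30 ± 0.075 in WT lung (adjusted p = 0.0174), while none of the clamp loader subunits Rfc3, Rfc4 and Rfc5 passed in either genotype. Both lagging strand genes fell. Lig1, the ligase that joins Okazaki fragments, had 34, 35.8 and 37.1 CPM at day 56 and 44.1, 41.8 and 44.1 CPM at day 7 in IL6KO rats, and 36.9, 37.3 and 36.1 CPM at day 56 and 48.3, 47.2 and 50.2 CPM at day 7 in WT rats (-0.31 ± 0.07 in IL6KO and -0.44 ± 0.07 in WT on the log2 scale). Fen1, the flap nuclease, had 8.21, 9.89 and 10.9 CPM at day 56 and 14.7, 14 and 11.9 CPM at day 7 in IL6KO rats, and 11, 10.8 and 8.61 CPM at day 56 and 15.8, 15.3 and 16.5 CPM at day 7 in WT rats (-0.52 ± 0.14 in IL6KO and -0.68 ± 0.14 in WT).

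Of the chromatin assembly genes, Uhrf1, which carries DNA methylation marks to the new strand, had 5.47, 6.53 and 6.74 CPM at day 56 and 16, 13.7 and 13.3 CPM at day 7 in IL6KO lung. In WT lung Uhrf1 had 8.16, 8.27 and 7.92 CPM at day 56 and 19.8, 19.2 and 22.7 CPM at day 7. Its log2 fold change was -1.23 ± 0.12 in IL6KO (adjusted p = 3.36e-05) and -1.38 ± 0.12 in WT (adjusted p = 7.26e-06), and the groups did not overlap. Chaf1a, a histone chaperone subunit, had 7.72, 8.79 and 10.2 CPM at day 56 and 13.9, 12.8 and 11.3 CPM at day 7 in IL6KO rats, and 11.4, 10.3 and 9.93 CPM at day 56 and 14.2, 14.7 and 18.6 CPM at day 7 in WT rats and fell in both genotypes, and its partner Chaf1b fell in WT. Ccne1, the cyclin that drives entry into S phase, had 1.16, 0.81 and 0.842 CPM at day 56 and 2.49, 2.3 and 1.94 CPM at day 7 in IL6KO rats, and 1.66, 1.64 and 0.695 CPM at day 56 and 2.98, 2.84 and 4.37 CPM at day 7 in WT rats, and fell by 1.29 in IL6KO (adjusted p = 0.0291) and by 1.35 in WT lung (adjusted p = 0.0115), and Ccne2 fell in WT lung (-0.74, adjusted p = 0.0406).

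The 15 members with an E2F-type match had a median log2 fold change of -0.58 in IL6KO and -0.63 in WT lung, with 7 called lower in IL6KO and 10 in WT lung. The 19 members whose promoter lacked the letters had medians of -0.40 in IL6KO and -0.53 in WT lung, with 8 called lower in IL6KO and 11 in WT lung. The 6 members without a promoter entry that were measured on both days had the medians furthest below 0, -0.74 in IL6KO and -1.14 in WT lung, with 3 called lower in IL6KO and 5 in WT lung. No test was made of these differences.

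Mitosis genes fell too. Of 19 mitosis genes 18 fell in each genotype, with median log2 fold changes of -1.57 in IL6KO and -1.98 in WT lung, among them Top2a (-1.69 in IL6KO and -2.16 in WT), which untangles DNA, and Cdk1, the kinase that starts mitosis (-1.82 in IL6KO and -2.11 in WT). Mki67, the usual proliferation marker, fell by 1.22 in IL6KO (adjusted p = 0.000133) and by 1.67 in WT lung (adjusted p = 6.79e-06). Of 51 further replication genes 5 fell and 1 rose in IL6KO lung, and 13 fell and 1 rose in WT lung, led by Ccna2, the S-phase cyclin, at -1.75 in IL6KO and -2.04 in WT, and the histone chaperone Asf1b at -1.15 in IL6KO and -1.93 in WT; the one that rose was Orc2 in both. Of 9 CDK inhibitors and Rb family genes, Cdkn2c fell in both genotypes (-0.83 in IL6KO and -0.82 in WT), and of 7 G1 cyclins and kinases, Mycn fell in both (-1.77 in IL6KO and -2.08 in WT).

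Markers of other cells moved with the days. Of 4 fibroblast markers 2 fell in each genotype, and their summed level was 2215–2459 CPM at day 56 and 5009–5921 CPM at day 7 in IL6KO, and 2214–2726 CPM at day 56 and 6063–7652 CPM at day 7 in WT lung, with 0 markers at 0. The sum of 5 erythroid genes was 68.3–107 CPM at day 56 and 145–318 CPM at day 7 in IL6KO, and 51–79.5 CPM at day 56 and 145–176 CPM at day 7 in WT lung. In smooth muscle 3 of 4 markers fell in each genotype, and 4 of 4 NK and 4 of 5 B cell markers rose in WT lung and 0 in IL6KO lung. The part of these cells in the fall of the replication genes was not tested.

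The day of sampling and the count table cannot be told apart, since each day was deposited in a table of its own. The ribosomal gene Rpl8 had 0 counts in every day 7 library and 410–626 CPM at day 56, while no member was at 0 in any lung library. The count of called members in WT lung dropped to 17 without the WT day 7 replicate 3 library. In IL6KO lung the count dropped to 7 without the IL6KO day 7 replicate 1, to 10 without the IL6KO day 7 replicate 2 and to 8 without the IL6KO day 56 replicate 1. Under every alternative run, 7 members were still called lower in IL6KO lung (Cdc6, Mcm10, Mcm5, Mcm6, Rrm2, Tk1 and Uhrf1) and 16 members were still called in WT lung, Gins2 among them.

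The day effect was not shown to differ between the genotypes. In the genotype by day interaction 0 of 40 members and 0 of 13865 genes passed edgeR's test, and DESeq2 called 0 members. At an unadjusted p under 0.05, the change over the days was higher in IL6KO than in WT for 3 members and lower for 1, where it was higher for 4.26% and lower for 3.27% of all genes. The interaction was below 0 for 10 of 40 members, where it was below 0 for 49.4% of all genes. The smallest p was that of Pole (0.62 ± 0.20 on the log2 scale, adjusted p = 0.541), followed by Gins2 (-0.34), Cdc45 (0.58) and Tyms (0.47).

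In lung at day 7, most members had lower levels in IL6KO than in WT rats, and none passed the test. At an adjusted p under 0.05 edgeR called 0 of 40 members, where 1.16% of all 14368 genes were called lower and 0.933% higher, and DESeq2 called 3. At an unadjusted p under 0.05, 14 members were lower and 0 higher, where 7.59% of all genes were lower and 6.64% higher. The log2 fold change was below 0 for 35 of 40 members, where it was below 0 for 49.3% of all genes, with a median of -0.26 for the members and 0.00 for all genes. In 19 members all IL6KO libraries lay below all WT libraries, where 9.66% of all genes did so, and in 0 members all lay above, where 9.09% did.

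Uhrf1 had the smallest p, with 16, 13.7 and 13.3 CPM in IL6KO and 19.8, 19.2 and 22.7 CPM in WT lung. The groups did not overlap, and the log2 fold change was -0.52 ± 0.11 (adjusted p = 0.0563, and 0.0125 with DESeq2 to 0.196 over the alternatives). Rrm2 had 8.97, 10.2 and 6.45 CPM in IL6KO and 13.3, 13.8 and 16 CPM in WT lung, a log2 fold change of -0.75 ± 0.17 (adjusted p = 0.059, and 0.00411 with DESeq2 to 0.154 over the alternatives) and the largest change of the members. Tk1 had 27.2, 29.7 and 23.4 CPM in IL6KO and 33.9, 37.1 and 46 CPM in WT lung, also without overlap (-0.54 ± 0.13, adjusted p = 0.0716, and 0.00735 with DESeq2 to 0.177 over the alternatives). Cdc45 had 13.2, 11.8 and 12 CPM in IL6KO and 14.6, 15.9 and 20.5 CPM in WT lung (-0.46 ± 0.14, adjusted p = 0.157). Pole had 13.2, 11.9 and 10.5 CPM in IL6KO and 15.1, 14.8 and 17.4 CPM in WT lung (-0.40 ± 0.12, adjusted p = 0.161). In all 5 genes every IL6KO library was below every WT library.

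By role, all 4 licensing genes, all 6 core helicase genes, both lagging strand genes and all 3 chromatin assembly genes had log2 fold changes below 0, with medians of -0.39, -0.32, -0.20 and -0.52. Ccne1 was at -0.59 and Ccne2 at -0.20. The nucleotide supply genes had a median of -0.31, the helicase activators -0.36, the polymerase and primase genes -0.13 and the clamp genes -0.13. Gins2 (0.15), Prim2 (0.11), Pold3 (0.04), Rfc4 (0.03) and Dut (0.03) were the 5 members above 0. The shift was uneven between libraries: relative to the mean of all 6, the median log2 deviation of the members was -0.02, -0.07 and -0.29 in the IL6KO libraries and 0.04, 0.08 and 0.24 in the WT libraries. The median of the members lay between -0.35 and -0.19 over all alternatives.

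In the same lungs part of the mitosis list passed the test. Of 19 mitosis genes 8 were lower in IL6KO lung, led by Ccnb1, the mitotic cyclin (-0.76, adjusted p = 0.0125), the spindle kinase Aurkb (-0.57, adjusted p = 0.0214) and Tpx2 (-0.56, adjusted p = 0.0399), and the list's median was -0.51. Top2a had 62.7, 54.8 and 44.5 CPM in IL6KO and 83, 78.7 and 79.1 CPM in WT lung (-0.57 ± 0.11, adjusted p = 0.0399), and Mki67 had 80.6, 68 and 55.1 CPM in IL6KO and 91.5, 85.6 and 90.9 CPM in WT lung (-0.40 ± 0.12, adjusted p = 0.165). Of 52 further replication genes only Timeless, a fork protection factor, was called (-0.40, adjusted p = 0.0461). The sums of fibroblast and smooth muscle markers were lower in the same IL6KO lungs without overlap. For 4 fibroblast genes they were 5009–5921 CPM in IL6KO and 6063–7652 CPM in WT (0 of 4 called, Col1a1 -0.51, adjusted p = 0.165). Within that list Pdgfra was higher in IL6KO, at 261, 260 and 225 CPM against 220, 174 and 202 CPM in WT. Dcn had a mean of 124 CPM in IL6KO and 107 CPM in WT. For 4 smooth muscle genes the sums were 1594–1649 CPM in IL6KO and 1703–1869 CPM in WT (1 of 4 called). NK cell markers moved the other way, with 4 of 4 higher in IL6KO and a summed level of 82.1–103 CPM in IL6KO and 29.6–43.2 CPM in WT lung. The sums of 5 B cell genes, at 33.7–43.6 CPM in IL6KO and 26.2–29.6 CPM in WT, and of 4 endothelial genes, at 2229–2244 CPM in IL6KO and 2085–2124 CPM in WT, were also higher in IL6KO, with 0 genes called. Within the endothelial list Cldn5 went the other way, with a mean of 362 CPM in IL6KO and 406 CPM in WT. So did Pax5 of the B cell list, with a mean of 1.12 CPM in IL6KO and 1.28 CPM in WT. The part of these cells in the result was not tested.

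**Figure D3:**
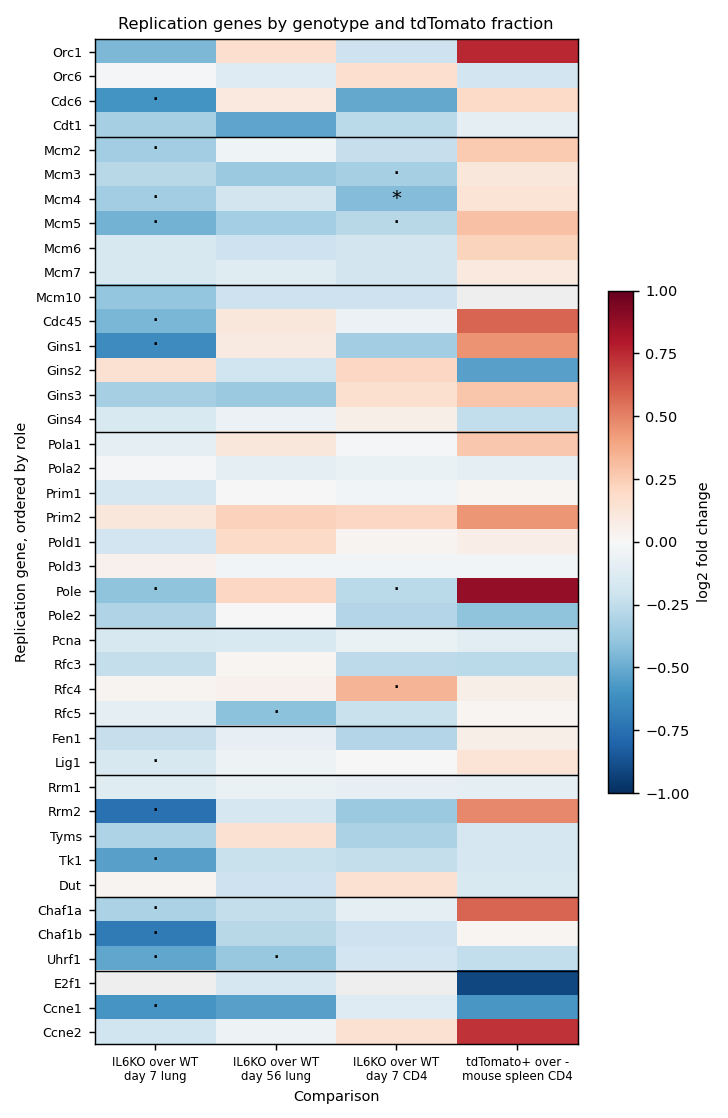
log2 fold change (colour, cut at -1 and 1) of 41 replication genes (rows, grouped by role) for IL6KO over WT (lung at day 7, lung at day 56, CD4 isolates at day 7) and for tdTomato-positive over tdTomato-negative mouse spleen CD4 cells; dots mark an unadjusted p under 0.05, the star an adjusted p under 0.05 and grey a gene not analysed or not tested. The day 7 lung column is mostly blue with 14 dots, the single star is Mcm4 in the CD4 isolates, and the spleen column has no dot.

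No member passed the test between the genotypes at day 56. edgeR called 0 of 41 members, where 0.0138% of all 14475 genes were called lower and 0% higher, and DESeq2 called 0. At an unadjusted p under 0.05, 2 members were lower and 0 higher, where 5.17% of all genes were lower and 6.22% higher. The median log2 fold change was -0.10, and in 5 members all IL6KO libraries lay below all WT libraries, where 8.55% of all genes did so, and in 0 all lay above, where 8.3% did. The changes ran from -0.54 for Ccne1 to 0.23 for Prim2. Rfc5 had 8.94, 10.6 and 10.3 CPM in IL6KO and 15, 11.2 and 13.5 CPM in WT lung (-0.41 ± 0.15, adjusted p = 0.414). Uhrf1 had 5.47, 6.53 and 6.74 CPM in IL6KO and 8.16, 8.27 and 7.92 CPM in WT lung (-0.38 ± 0.15, adjusted p = 0.428). In both genes the groups did not overlap.

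The next 3 by p were Mcm3, with 11.7, 15.6 and 17.4 CPM in IL6KO and 19, 18.2 and 20.7 CPM in WT (adjusted p = 0.44), Cdt1, with 3.83, 4.63 and 3.96 CPM in IL6KO and 6.96, 6.77 and 4.17 CPM in WT (adjusted p = 0.44), and Mcm5, with 9.37, 11.7 and 9.66 CPM in IL6KO and 10.9, 13 and 15.2 CPM in WT (adjusted p = 0.457). In Cdt1 the WT replicate 3 library lay among the IL6KO libraries. Without that library, which stands apart from its group, Cdt1 was the 1 member called, at a log2 fold change of -0.73, and the median of the members was -0.01. E2f1, one of the E2F transcription factors, had 13.2, 13.9 and 12.1 CPM in IL6KO and 13, 15.8 and 15.3 CPM in WT lung at day 56 (-0.17, adjusted p = 0.587). The mitosis list had 0 of 19 called at day 56, with Mki67 at 0.04 (adjusted p = 0.913) and Top2a at -0.11 (adjusted p = 0.734).

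Most replication genes had higher levels in lung CD4 isolates than in whole lung at day 7. Relative to lung, 32 of 40 members were higher and 1 lower in IL6KO, where 36.4% of all 14772 genes were higher and 43.2% lower, and 32 of 40 were higher and 0 lower in WT, where 37.7% were higher and 43.6% lower. The median log2 fold change was 1.21 in IL6KO and 0.98 in WT, against -0.12 for all genes in each. All isolates lay above all lung libraries in 35 of 40 members in IL6KO and 33 of 40 in WT. They lay wholly below in 2 members in IL6KO and 1 in WT. The share of all genes without overlap is not given for this comparison. The lists of 32 shared 31 genes, 96.9% of each; Orc6 was called in IL6KO and Pold3 in WT. These comparisons use 1 scaling over the 10 day 7 libraries, so the CPM in the next 3 paragraphs differ from those above.

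All 6 helicase core genes and all 4 clamp genes were higher in both genotypes. Mcm3 changed most, with 101 and 106 CPM in IL6KO isolates and 22.1, 21.9 and 17.2 CPM in IL6KO lung, and 137 and 140 CPM in WT isolates and 23.4, 22.6 and 28.7 CPM in WT lung. The log2 fold change was 2.34 ± 0.12 in IL6KO (adjusted p = 2.68e-09) and 2.48 ± 0.12 in WT (adjusted p = 1.47e-09). Pcna had 246 and 273 CPM in IL6KO isolates and 66.7, 64.8 and 57.8 CPM in IL6KO lung, and 291 and 287 CPM in WT isolates and 65.7, 72.5 and 73.7 CPM in WT lung (2.04 ± 0.091 in IL6KO and 2.03 ± 0.091 in WT, adjusted p = 6.29e-10 and 6.32e-10). For both genes the isolates lay far above every lung library. Pole was at 1.99 in IL6KO and 1.93 in WT, Mcm6 at 1.73 in IL6KO and 1.84 in WT, and the clamp loader subunit Rfc4 at 1.58 in IL6KO and 1.37 in WT on the log2 scale. Mcm7 had the smallest standard error of the core, with 101 and 100 CPM in the isolates and 42.7, 42.8 and 44.4 CPM in lung in IL6KO rats, and 120 and 122 CPM in the isolates and 45.5, 48.6 and 51.3 CPM in lung in WT rats (1.22 ± 0.076 in IL6KO and 1.32 ± 0.076 in WT).

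Genes of the other roles were mostly higher in the isolates too. Pole had 43.7 and 44.1 CPM in the isolates and 12.3, 11.1 and 9.83 CPM in lung in IL6KO rats, and 51.5 and 60.5 CPM in the isolates and 14.1, 13.7 and 16.3 CPM in lung in WT rats. Prim1, the catalytic primase subunit, had 59.1 and 61.5 CPM in the isolates and 28.2, 25.5 and 22.2 CPM in lung in IL6KO rats, and 61.9 and 69.2 CPM in the isolates and 28.9, 29.4 and 26.8 CPM in lung in WT rats (1.25 ± 0.11 in IL6KO and 1.21 ± 0.11 in WT). Uhrf1 had 43.3 and 43 CPM in the isolates and 14.9, 12.8 and 12.4 CPM in lung in IL6KO rats, and 47.4 and 57 CPM in the isolates and 18.4, 17.9 and 21.2 CPM in lung in WT rats (1.69 ± 0.12 in IL6KO and 1.45 ± 0.12 in WT). In these 3 genes every isolate was above every lung library of its genotype. Rrm1 had 119 and 131 CPM in the isolates and 57.2, 55.3 and 47.8 CPM in lung in IL6KO rats, and 141 and 139 CPM in the isolates and 54.7, 57.9 and 61.3 CPM in lung in WT rats (1.22 ± 0.093 in IL6KO and 1.27 ± 0.093 in WT). Rrm2, the subunit with the largest fall over the days, had 21 and 19.6 CPM in the isolates and 8.36, 9.47 and 6.02 CPM in lung in IL6KO rats, and 22.4 and 32.8 CPM in the isolates and 12.3, 12.8 and 15 CPM in lung in WT rats (1.35 ± 0.2 in IL6KO and 1.05 ± 0.19 in WT). Lig1 had 71.6 and 79.4 CPM in the isolates and 41.1, 38.9 and 41.1 CPM in lung in IL6KO rats, and 75.2 and 84.9 CPM in the isolates and 44.9, 43.9 and 47.1 CPM in lung in WT rats (0.90 ± 0.085 in IL6KO and 0.82 ± 0.085 in WT). The isolates were again above lung in all 3, by a smaller factor for Lig1. Gins4 had 11.2 and 13 CPM in the isolates and 4.7, 5.41 and 4.2 CPM in lung in IL6KO rats, and 12 and 12.7 CPM in the isolates and 4.87, 5.89 and 4.98 CPM in lung in WT rats (1.35 ± 0.16 in IL6KO and 1.22 ± 0.16 in WT). Ccne1 had 6.48 and 7.88 CPM in the isolates and 2.32, 2.14 and 1.81 CPM in lung in IL6KO rats, and 7.45 and 9.24 CPM in the isolates and 2.77, 2.65 and 4.1 CPM in lung in WT rats (1.78 ± 0.23 in IL6KO and 1.41 ± 0.22 in WT). Orc1 had 4.23 and 4.63 CPM in the isolates and 1.24, 1.69 and 1.05 CPM in lung in IL6KO rats, and 4.23 and 6.6 CPM in the isolates and 1.29, 1.58 and 2.58 CPM in lung in WT rats (1.74 ± 0.33 in IL6KO and 1.58 ± 0.31 in WT). These 3 are expressed at a low level in lung and did not overlap between the tissues.

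Pola2 was the one member called lower, in IL6KO, with 23.8 and 25.6 CPM in the isolates and 28.3, 34 and 33.1 CPM in lung (-0.37, adjusted p = 0.0127; -0.23 and adjusted p = 0.0853 in WT). Cdc6, Cdc45, Gins1, Gins2, Tyms and Ccne2 were called in neither genotype. Of the genes that overlap members, Klhdc1 was higher in the isolates as Pole2 was (1.15 in IL6KO and 1.49 in WT, adjusted p = 0.000108 and 1.1e-05), Ints8 was higher in IL6KO (0.28, adjusted p = 0.0236) and Zswim9 was lower (-0.85 in IL6KO and -0.74 in WT, adjusted p = 0.00293 and 0.0066).

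**Figure D4:**
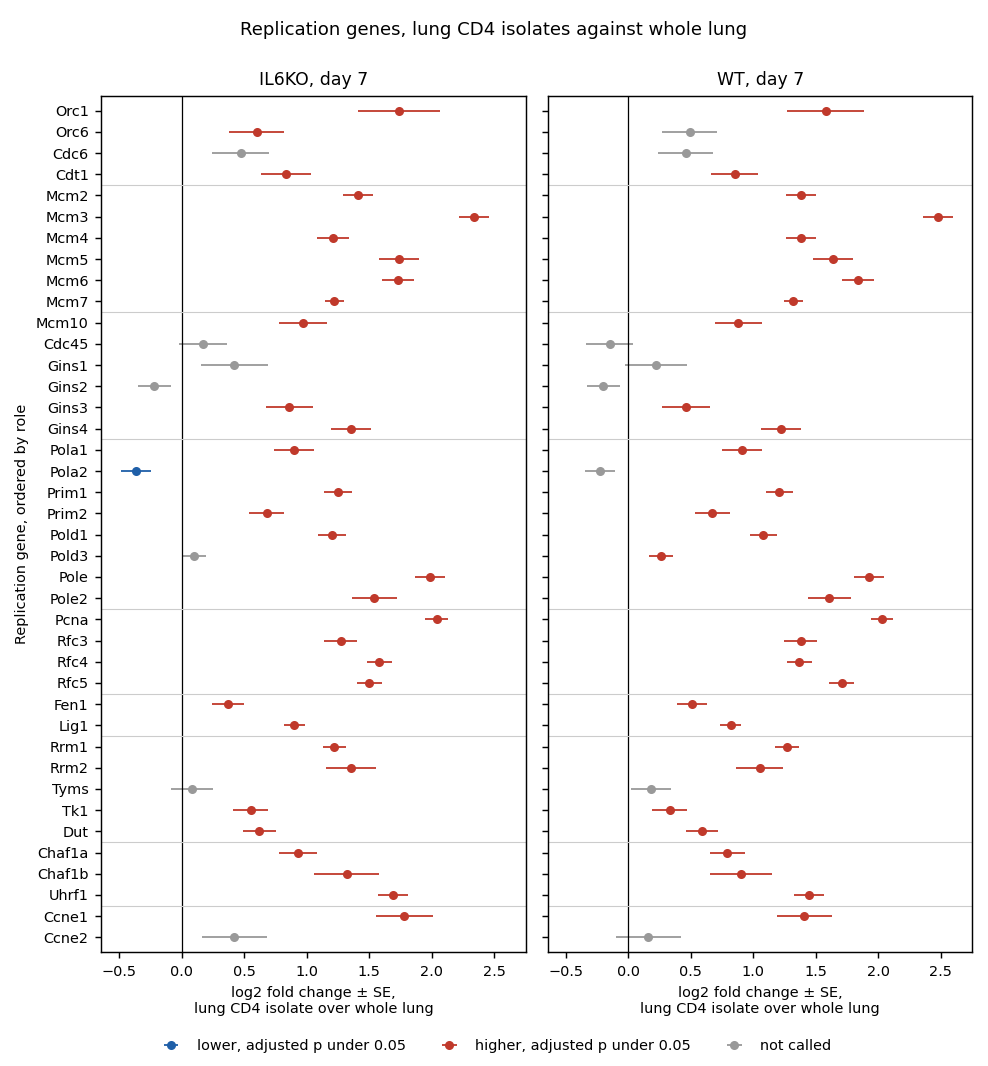
log2 fold change with its standard error (horizontal axis) of 40 replication genes (rows, grouped by role) for lung CD4 isolates over whole lung at day 7 in IL6KO (left, 2 against 3 libraries) and WT rats (right, 2 against 3 libraries). The helicase core and clamp genes lie between 1.21 and 2.48, and Pola2 and Gins2 lie left of 0 in both.

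Of the mitosis genes 9 of 19 were higher and 3 lower in IL6KO, with a median of 0.32, and 4 were higher and 5 lower in WT, with a median of -0.26. Mki67 was higher in both (1.37 in IL6KO and 1.12 in WT), and Cdk1 lower in both (-0.76 in IL6KO and -1.09 in WT). Of 52 further replication genes 39 were higher and 1 lower in IL6KO, and 37 higher and 2 lower in WT, among them Rpa1 of the single-strand binding complex (1.84 in IL6KO and 2.20 in WT) and Donson (3.14 in IL6KO and 3.45 in WT). The 7 T cell markers tested were all higher in both genotypes, and 4 of 4 endothelial, 4 of 4 fibroblast and 4 of 4 smooth muscle markers were lower. Neutrophil (4 of 4) and macrophage (3 of 4) markers were also higher in the isolates of both genotypes, and their part in the replication values was not tested. Tissue and table cannot be told apart here either, and the labels do not say whether lung and CD4 samples came from the same rats.

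**Figure D5:**
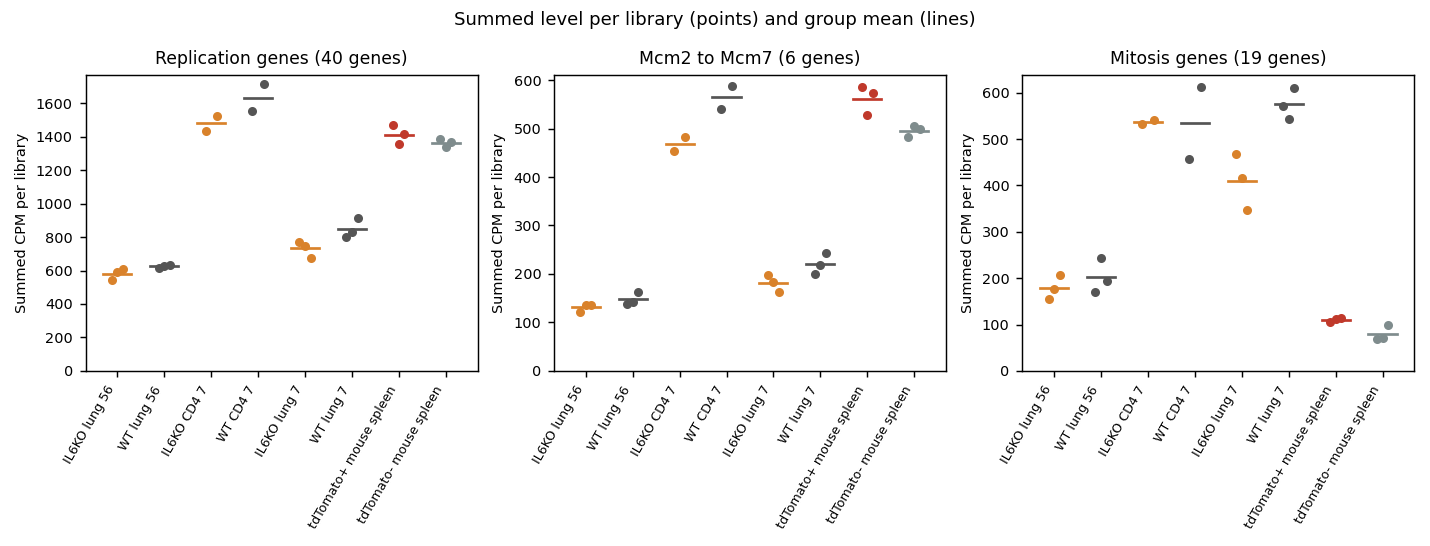
Summed CPM per library (vertical axis, from 0) of 40 replication genes, of Mcm2 to Mcm7 and of 19 mitosis genes, by group (points are libraries, lines are group means). Among the rat groups the replication sums are highest in the CD4 isolates, at 1436–1522 CPM in IL6KO and 1550–1712 CPM in WT, and lowest in day 56 lung; the mouse spleen fractions come from another species and table and are drawn beside them without comparison.

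Between genotypes in the CD4 isolates 1 member was called. Mcm4, a helicase core subunit, had 62.7 and 65.5 CPM in IL6KO and 80.2 and 92.3 CPM in WT isolates, with a log2 fold change of -0.43 ± 0.099 (adjusted p = 0.0469), where 2.91% of all 12243 genes were called lower and 3.5% higher. The call was lost with DESeq2 (adjusted p = 0.0521, with a range of 0.0291 to 0.218 over the alternatives) and when any 1 of the 4 libraries was left out, with 0 members called each time. All 6 core helicase genes had every IL6KO library below every WT library, and their sum was 454–483 CPM in IL6KO and 540–588 CPM in WT isolates. Over the 40 members 18 lay wholly below and 3 wholly above, where 28.8% of all genes lay below and 27.2% above, and the median was -0.18, with changes between -0.51 for Cdc6 and 0.34 for Rfc4. The shift was uneven between libraries. Relative to the mean of all 4, the median log2 deviation of the members was -0.1 and -0.02 in the IL6KO and -0.06 and 0.19 in the WT isolates.

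Mcm3 had 92.7 and 99.4 CPM in IL6KO and 119 and 123 CPM in WT isolates (-0.33, adjusted p = 0.0657). Rfc4 went the other way, with 28.8 and 30 CPM in IL6KO and 23.2 and 23.4 CPM in WT isolates (0.34, adjusted p = 0.109). Mcm5 had 57 and 61.4 CPM in IL6KO and 65.5 and 77.8 CPM in WT (-0.28, adjusted p = 0.174), and Pole had 40.2 and 41.3 CPM in IL6KO and 44.8 and 53.1 CPM in WT isolates (-0.27, adjusted p = 0.201). None of these 4 passed, although the groups did not overlap in any of them. Without the WT replicate 2 library, Mcm3 was at -0.3, Rfc4 at 0.34, Mcm5 at -0.15 and Pole at -0.13. Of the mitosis genes only Aurka was called, higher in IL6KO (0.72, adjusted p = 0.0197), and Mki67 and Top2a were at -0.06 and -0.13. Markers of many other cells separated the same isolates. Besides the macrophage, alveolar type 2 and T cell sums given above, the sums were lower in IL6KO for smooth muscle (16.9–20.7 CPM in IL6KO and 40.2–40.5 CPM in WT, 3 of 4 called), fibroblasts (63.7–93.4 CPM in IL6KO and 115–118 CPM in WT, 0 of 4 called) and neutrophils (382–476 CPM in IL6KO and 535–1130 CPM in WT, 0 of 4 called). Of the neutrophil genes, S100a8 and S100a9 were highest in the WT replicate 2 library, at 313 and 601 CPM. Csf3r went the other way, with 226 and 190 CPM in IL6KO and 138 and 189 CPM in WT isolates. The sum was higher in IL6KO for B cells (27.8–39 CPM in IL6KO and 20–21.4 CPM in WT for 5 genes, 0 of the 4 tested called). For 5 erythroid genes, without Hbb, the sums overlapped, at 175–259 CPM in IL6KO and 219–241 CPM in WT isolates. The red cell gene Hbb had 4148 and 2009 CPM in IL6KO and 604 and 922 CPM in WT isolates (2.01, adjusted p = 0.204). Tfrc, of the erythroid list, went the other way, with 123 and 123 CPM in IL6KO and 202 and 213 CPM in WT isolates. The part of these cells in the replication values was not tested. The genotype by tissue interaction, over the 10 day 7 libraries, called 0 of 40 members with edgeR and with DESeq2. At the same adjusted threshold edgeR called 1.88% of all genes higher and 4.55% lower. Of the members, 0 had an unadjusted p under 0.05, and the share of all genes at that threshold is not given here.

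In mouse spleen no replication gene passed the test between the tdTomato fractions. The standard errors and p-values given for spleen come from fits without a term for the mouse, although fractions of one number are from one mouse. The tdTomato-positive replicate 2 library stood apart on the first principal component (27.4% of the variance), at 48.1, where the other tdTomato-positive libraries had -8.46 and -16.1 and the tdTomato-negative libraries -7.99, 7.09 and -22.7. edgeR called 0 of 40 members tested, where 0.00902% of all 11083 genes were called lower and 0% higher, DESeq2 called 0, and 0 members had an unadjusted p under 0.05, where 1.5% of all genes were lower and 2.07% higher. The median log2 fold change was 0.06, and 0 without the replicate 2 library that stood apart, where 0 members were called and 2 had an unadjusted p under 0.05 (Mcm2 and Ccne1). The lowest log2 fold change was that of E2f1 (-0.91), with 6.35, 0.784 and 4.5 CPM in tdTomato-positive and 4.69, 9.95 and 7.42 CPM in tdTomato-negative cells, and it was at -0.43 without the same library, which had the low value. The highest was that of Pole (0.88, and 0.85 without that library), and Gins2 was at -0.54, and at -0.11 without it. The smallest p was that of Ccne1, with 9.82, 12.2 and 9.83 CPM in tdTomato-positive and 19, 15.4 and 13.3 CPM in tdTomato-negative cells (-0.58 ± 0.27, adjusted p = 0.998). Its groups did not overlap, and Gins4 also lay wholly below, while Mcm5 and Prim2 lay wholly above, where 4.44% of all genes lay below and 4.12% above.

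Mcm2 had 101, 85.1 and 100 CPM in tdTomato-positive and 81.4, 87 and 70.8 CPM in tdTomato-negative cells (0.26 ± 0.14). Ccne2 had 9.9, 8.74 and 17.3 CPM in tdTomato-positive and 5.83, 4.13 and 11.7 CPM in tdTomato-negative cells (0.72 ± 0.41). Mcm5 had 43, 37.1 and 43.3 CPM in tdTomato-positive and 33.7, 30 and 36.8 CPM in tdTomato-negative cells (0.29 ± 0.17). Mcm6 had 154, 129 and 136 CPM in tdTomato-positive and 108, 122 and 131 CPM in tdTomato-negative cells (0.22 ± 0.13). Each of these 4 had an adjusted p of 0.998. By number, the tdTomato-positive fraction was above the tdTomato-negative fraction of the same mouse in every pair for Ccne2, Mcm5 and Mcm6. For Mcm2 it was so in all pairs but replicate 2. These 4 genes were named for their small p in the same comparison, so the pairs are no separate evidence. The share of all genes above in every pair is not given here. All 6 helicase core genes were above 0, with a median of 0.18 (0.12 to 0.37 without the tdTomato-positive replicate 2 library), and their sum was 527–585 CPM in tdTomato-positive and 482–505 CPM in tdTomato-negative cells. No core gene passed the test, and the share of all genes above 0 in spleen is not given here. Mcm10 was left out by the filter on low counts, at 2.89, 0 and 0.367 CPM in tdTomato-positive and 0.457, 1.41 and 0.71 CPM in tdTomato-negative cells.

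The clamp gene Pcna and the thymidine kinase gene Tk1 did not separate the fractions. Pcna had 157, 113 and 138 CPM in tdTomato-positive and 181, 121 and 139 CPM in tdTomato-negative cells, while Tk1 had 2.8, 3.92 and 1.84 CPM in tdTomato-positive and 3.43, 4.41 and 1.82 CPM in tdTomato-negative cells. The sum of 19 mitosis genes was 105–114 CPM in tdTomato-positive and 69.7–99.9 CPM in tdTomato-negative cells; 0 of 19 were called, with Mki67 at 8.74, 5.38 and 12.1 CPM in tdTomato-positive and 3.2, 6.01 and 5.37 CPM in tdTomato-negative cells (0.84 ± 0.42, adjusted p = 0.998). B cell markers, 5 genes, summed to 67.1–80.9 CPM in tdTomato-positive and 29.9–54.9 CPM in tdTomato-negative cells and macrophage markers to 47.8–53.7 CPM in tdTomato-positive and 17.6–37.7 CPM in tdTomato-negative cells. No marker of either list was called, and their part in these values was not tested. Mouse and rat levels come from separate tables and species and are given side by side only.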

How the data were processed

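Gene-level RNA-seq data of 22 samples in 4 tables were used, 1 column per sample. The authors deposited raw counts, whole numbers that per the file headers are total counts per gene. GRCm38 is the only genome build in the submitters' processing notes, for rat and mouse samples alike, although it is a mouse assembly. Aligner, counter, annotation and use of strand were not given in the sources used here. All sample columns were matched to labels by name.

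In R 4.3.3, edgeR 4.0.16 was used to filter low counts (filterByExpr), scale by TMM and run the robust quasi-likelihood test (glmQLFit, then glmQLFTest), each genotype or fraction comparison within its own table. The days were compared in a joint fit of 12 lung libraries over 20230 shared symbols, and tissues in a joint fit of 10 day 7 libraries over 22071 shared symbols. p-values were adjusted by Benjamini-Hochberg over all genes tested and called under 0.05. Fold changes above 0 on the log2 scale mean higher in IL6KO, at day 56, in CD4 isolates or in tdTomato-positive cells. CPM for the days keep each table's own scaling. A gene at 0 is bounded by 3 counts, 0.127 to 0.343 CPM per library, which covers counting error only.

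Alternatives were DESeq2 1.42.0, scaling by RLE, tests without the filter, a block for the replicate number, and each library left out in turn. By the labels, splenic fractions of one number are from one mouse, and their deviations from the group means correlated at 0.03, 0.12 and 0.12 across genes. The first comparison of each fit was also run on counts simulated from its own estimated spread. That run checks whether fold changes set in advance are recovered, and it does not measure false calls.

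The 41 members, their roles and all other lists were chosen with earlier results of these data known. Named per comparison were the called members with the smallest p (up to 2 per role) or, with fewer than 5 called, the 5 with the smallest p, together with members that went against the rest and those with the largest and smallest change, up to 3 genes of each other list, and Il6, Mki67 and Top2a. Promoters and overlapping genes were taken from RefSeq tables of GRCr8.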

Additional observations from a re-analysis of the deposited data

How the results depend on the processing

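Leaving out 1 library at a time, between genotypes 0 to 1 members were called in day 56 lung and 0 to 0 in the CD4 isolates, and between days 7 to 20 were called in IL6KO lung and 17 to 29 in WT lung; fewer libraries enter each such fit. In day 7 lung, where edgeR called 0 members, DESeq2 called 3 and edgeR without the filter on low counts called 2, and in the CD4 isolates DESeq2 called 0 where edgeR called 1; the cause was not tested. No member's called change turned its direction under any alternative run.

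Among rats, libraries of the same number share only a number: their deviations correlated at 0.06, 0.08 and 0.26 in day 7 lung and at -0.16, -0.07 and -0.03 in day 56 lung. With the replicate number as a block, 1 member (Uhrf1, adjusted p = 0.0437) was called in day 7 lung, 0 in day 56 lung, 1 in the CD4 isolates, 0 in spleen, 12 for the days in IL6KO and 23 for the days in WT lung, 32 and 31 for CD4 isolates against lung in IL6KO and WT, and 0 in either interaction. In spleen, where the pairs are real, the block changed no member's call. With 2 or 3 libraries per group, and members such as Orc1 resting on few counts, small changes would not be detected.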
